A study of Mus musculus with 24 samples.

Results

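The proteasome subunit genes were followed in mouse primary microglia treated with bafilomycin A1 (BafA1), a macrolide that blocks the proton pump (V-ATPase) by which lysosomes are acidified. The members were all genes whose symbols begin with Psma, Psmb, Psmc, Psmd or Psme followed only by digits and whose mean abundance over the 24 libraries was at least 1 CPM, the unit of counts scaled to the library total. The symbols alone matched 43 of 56980 gene IDs, and 41 of these were kept. Psma8 and Psmb11, with means of 0.675 and 0.618 CPM, fell outside the threshold, and the lowest members inside it were Psmd9 and Psmb9, with means of 22.3 CPM each. All 41 were among the 12648 genes with enough counts to be tested, so every kept member has a test result. They comprise 7 α subunits and 7 constitutive β subunits of the core particle, 3 immunoproteasome β subunits, 6 ATPases and 14 non-ATPase genes of the 19S regulatory particle, and 4 activator genes.

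The proteasome is the protease that degrades ubiquitin-tagged proteins in the cytosol and nucleus. Rings of α subunits form the gate of its barrel-shaped core, rings of β subunits line the chamber and carry the proteolytic sites, and the 19S particle at the ends recognises, deubiquitinates, unfolds and feeds in the substrate. Cells exposed to interferon replace the catalytic β subunits with immunoproteasome subunits, which change the peptides made for presentation on MHC class I, and microglia, the resident macrophages of the brain, carry both forms. When proteasome capacity falls short in mammalian cells, the transcription factor encoded by Nfe2l1 raises the transcription of subunit genes, including those of the constitutive core and the 19S particle.

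Wild-type microglia were treated with 50 nM BafA1 or with an equal share of the vehicle DMSO for 1, 7, 14 or 22 h, with 3 replicates for each treatment and time. The cells came from the cortex and hippocampus of neonatal mice and had been shaken off mixed glial cultures, so other glial cells may have been carried over. The labels call the replicates biological but do not say whether they came from separate litters or flasks, so the p-values measure only the spread between these samples. RNA was read as 3′ tags with molecular identifiers, a method that counts transcripts from their ends and does not tell isoforms apart. Library totals ran between 1322169 and 4189077 estimated counts, of which members took between 0.506% and 0.757%. In bulk RNA, fewer cells of a type and less RNA per cell cannot be told apart.

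Proteasome genes were higher in BafA1-treated cells late in the time course, and the rise was uneven across the complex. At 22 h, 21 of 41 members (51.2%) rose and 1, Psmb9, fell, against 17.9% higher and 22% lower of all 12648 genes tested. The largest rises were in Psmd8, Psmb6, Psmd10 and Psmb5, which were 4.31, 3.12, 2.40 and 2.23 times as abundant as in DMSO libraries. By role, 8 of 14 constitutive core genes, 12 of 20 genes of the 19S group, 0 of 3 immunoproteasome genes and 1 of 4 activators rose. The counts for immunoproteasome and activator genes are too small to be set apart from the 17.9% of all genes. A gene was called where edgeR's quasi-likelihood test gave an adjusted p under 0.05, with Benjamini-Hochberg adjustment over all 12648 genes, and such values are given below as edgeR adjusted p.

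The number of members called grew with time, as did the share of all genes called. At 1 h no member was called in either direction, as was true of all genes tested (0% higher and 0% lower by edgeR). At an unadjusted p under 0.05 there were 380 genes (3%), among them 1 member, and DESeq2 and limma-voom also called 0 members. At 7 h, 2 members (4.88%) rose and 0 fell, close to the 4.57% higher and 2.57% lower of all genes. At 14 h, 9 members (22.0%) rose and 0 fell, against 12.1% higher and 12.1% lower of all genes, and the count was 6 to 8 with each 14 h library left out in turn. The median log2 change of the members was -0.02 at 1 h, -0.04 at 7 h, 0.27 at 14 h and 0.45 at 22 h, whereas that of all genes tested was 0.02, -0.02, -0.05 and -0.06 at the same times. At 22 h, 35 of 41 members had a positive log2 change.

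**Figure D1:**
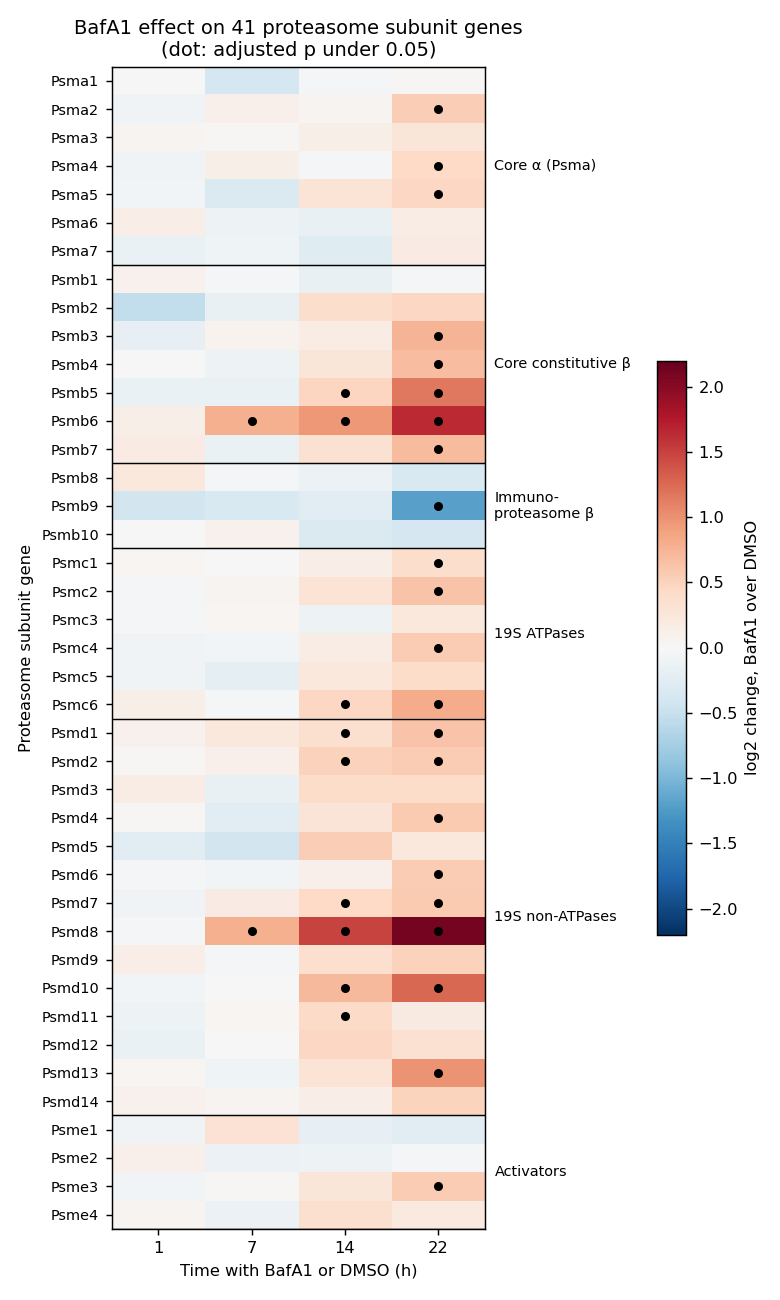
Log2 change, BafA1 over DMSO, of the 41 proteasome subunit genes (rows, grouped by role) at 1, 7, 14 and 22 h (columns), with red for higher and blue for lower in BafA1 libraries. Black dots mark an edgeR adjusted p under 0.05, which 0, 2, 9 and 22 genes reached at the 4 times, and the single blue cell with a dot is Psmb9 at 22 h.

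Other RNA moved in the same libraries, as read from marker lists whose sums cover all listed genes, tested or not. The summed level of 10 microglial markers was 1794 to 2504 CPM in BafA1 libraries at 22 h, against 4994 to 7369 CPM in DMSO libraries, and 8 of the 10 fell at both 14 and 22 h. Of all genes tested, 12.1% were lower at 14 h and 22% at 22 h. No microglial marker was at 0 in any of the 8 groups. Markers of the oligodendrocyte lineage, 6 of 7 tested lower at 22 h, summed to 83.4 to 112 CPM with BafA1, against 443 to 582 CPM with DMSO, where the myelin gene Mog was at 0 in all 3 libraries. Astrocyte markers, 4 of 7 lower, summed to 25.2 to 98.3 CPM with BafA1, against 107 to 247 CPM with DMSO. Neuronal markers, 2 of 3 lower, summed to 21.6 to 33.0 CPM with BafA1, against 160 to 222 CPM with DMSO, and fibroblast and vascular markers, 1 of 4 lower, to 23.0 to 99.0 CPM with BafA1, against 27.2 to 123 CPM with DMSO, with the endothelial gene Cldn5 at 0 in the BafA1 libraries. The part of these shifts in the proteasome values was not tested.

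The 19S particle held the gene with the largest change, Psmd8, which encodes a lid subunit (ENSMUSG00000030591). At 1 h Psmd8 had 229.6, 259 and 296 CPM in BafA1 libraries, against 256, 278 and 272 CPM in DMSO libraries. At 7 h it had 386, 465 and 418 CPM in BafA1 libraries, against 216, 275 and 247 CPM in DMSO libraries. The groups overlapped at 1 h and were apart at 7 h. At 14 h its level was 724, 806 and 660.1 CPM in BafA1 libraries, against 254, 243 and 280.4 CPM in DMSO libraries. At 22 h it was 1211, 1257 and 1076 CPM in BafA1 libraries, against 211, 305 and 309 CPM in DMSO libraries. The lowest BafA1 library thus lay well above the highest DMSO library at both late times, while the 12 DMSO libraries lay between 211 and 309 CPM over the whole course. The log2 change of Psmd8 was 0.78 ± 0.14 (SE) at 7 h, 1.49 ± 0.14 at 14 h and 2.11 ± 0.15 at 22 h, with edgeR adjusted p of 0.00067, 2.11e-08 and 3.47e-11.

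Psmd10 encodes gankyrin, a chaperone of 19S base assembly that is not part of the finished particle. It had 99.6, 92.8 and 99.8 CPM in BafA1 libraries, against 66.2, 63.3 and 49.3 CPM in DMSO libraries at 14 h. At 22 h Psmd10 had 129, 107 and 118 CPM in BafA1 libraries, against 47.1, 49.8 and 51.4 CPM in DMSO libraries. Neither time showed any overlap, and at 1 and 7 h the BafA1 and DMSO libraries were mixed. The log2 change was 0.71 ± 0.17 at 14 h and 1.26 ± 0.18 at 22 h (edgeR adjusted p = 0.00307 and 2.96e-06). Psmd4, a ubiquitin receptor of the particle, had 252, 270.1 and 282 CPM in BafA1 libraries, against 197, 162 and 179 CPM in DMSO libraries at 22 h, again with no overlap, and a log2 change of 0.58 ± 0.11 (edgeR adjusted p = 0.000132). At 7 h the order of Psmd4 was the other way round, with 171, 160.0 and 184 CPM in BafA1 libraries, against 209.8, 198 and 208 CPM in DMSO libraries, a difference that was not called.

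Of all genes tested, 17.9% were higher at 22 h and 12.1% at 14 h. In all, 8 of 14 non-ATPase genes of the 19S particle rose at 22 h and 6 of 14 at 14 h, with median log2 changes of 0.56 and 0.41. All 14 had a positive log2 change at both times. Without the assembly chaperones Psmd5, Psmd9 and Psmd10, which the symbol rule takes in, the counts were 7 at 22 h and 5 at 14 h. The base scaffold genes Psmd1 and Psmd2 rose at both times, by 0.36 ± 0.11 and 0.50 ± 0.13 on the log2 scale at 14 h and by 0.62 ± 0.12 and 0.56 ± 0.13 at 22 h. Of the lid genes, Psmd7 rose by 0.44 ± 0.14 and 0.58 ± 0.15 at the same times, and Psmd13 and Psmd6 by 0.99 ± 0.17 and 0.56 ± 0.17 at 22 h alone. Exons of Psmd1 and Psmd13 overlap those of Htr2b and Sirt3 on the opposite strand, and those of Psmd1 also overlap Gm21972 on the same strand. Psmd11, another lid gene, was called at 14 h only, with log2 changes of 0.42 ± 0.14 at 14 h and 0.21 ± 0.14 at 22 h. Psmd14, which encodes the deubiquitinase of the lid, had a log2 change of 0.49 ± 0.20 at 22 h and was not called (edgeR adjusted p = 0.0525).

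The ATPases form the ring that unfolds the substrate. At 22 h, 4 of 6 rose (Psmc1, Psmc2, Psmc4 and Psmc6), with a median log2 change of 0.48 over the 6, and at 14 h Psmc6 alone rose. The shares of all genes higher were 17.9% at 22 h and 12.1% at 14 h. Psmc6 had 152, 138 and 151 CPM in BafA1 libraries, against 86.1, 74.8 and 88.7 CPM in DMSO libraries at 22 h, with no overlap. Its log2 change was 0.82 ± 0.13 at 22 h (edgeR adjusted p = 2.46e-05). At 14 h it was 0.46 ± 0.13 (edgeR adjusted p = 0.0124), a call lost without DMSO replicate 2 of 14 h, where the adjusted p was 0.0723. Psmc2 had 112, 115 and 107 CPM in BafA1 libraries, against 70.5, 73.2 and 71.4 CPM in DMSO libraries at 22 h, and 68.7 to 105 CPM with BafA1 and 49.7 to 90.0 CPM with DMSO over the earlier times. The 22 h groups of Psmc2 did not overlap, and its log2 change was 0.63 ± 0.15 (edgeR adjusted p = 0.00114). Its 14 h groups were also apart, at 89.7 to 105 CPM with BafA1 and 76.6 to 80.5 CPM with DMSO, but it was not called then. Psmc5 had 88.0, 91.0 and 93.6 CPM in BafA1 libraries, against 77.8, 63.1 and 64.3 CPM in DMSO libraries at 22 h, and 38.4 to 93.3 CPM with BafA1 and 65.8 to 89.5 CPM with DMSO earlier. Its groups were also apart at 22 h, but the change of 0.40 ± 0.17 was not called (edgeR adjusted p = 0.0695). The 14 h groups of Psmc5 were apart too, at 86.3 to 93.3 CPM with BafA1 and 65.8 to 84.4 CPM with DMSO, again not called.

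Same-numbered replicates of the BafA1 and DMSO groups deviated together, so the fit was repeated with the replicate number as a block. With the replicate block, 12 members rose at 14 h and 26 at 22 h, against 15.8% and 21.3% of all genes higher in the same fit. The 3 added at 14 h were the 19S genes Psmd4 and Psmd12 and the assembly chaperone gene Psmd5, with blocked edgeR adjusted p of 0.0176, 0.0141 and 0.0482. The 5 added at 22 h were Psma3, Psmb2, Psmc5, Psmd9 and Psmd14, with blocked edgeR adjusted p of 0.046, 0.0443, 0.0356, 0.0468 and 0.00512. The block also made 1 member lower at 7 h, the α subunit gene Psma1 (edgeR adjusted p = 0.0104 with the block and 0.0558 without it), against 5.13% of all genes lower with the block.

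**Figure D2:**
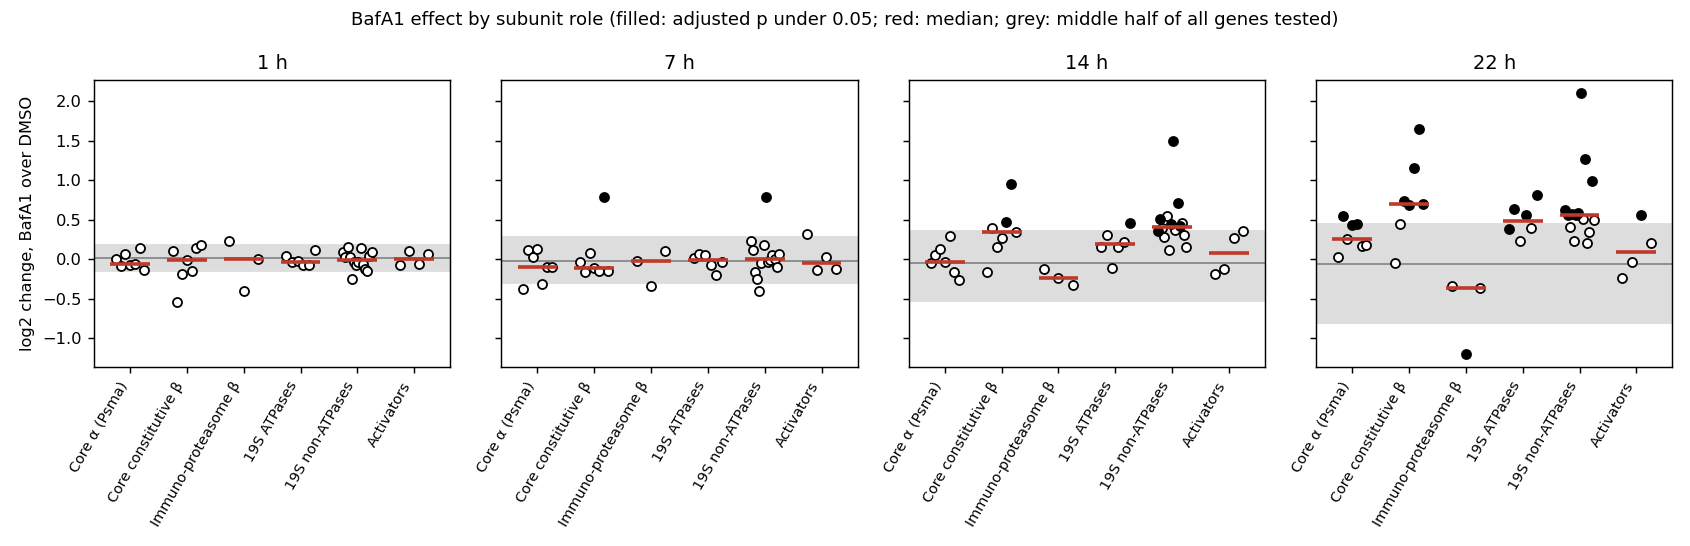
Log2 change, BafA1 over DMSO, of each member (circles) by role at 1, 7, 14 and 22 h, with filled circles for an edgeR adjusted p under 0.05 and red bars for the role's median. The grey line and band are the median and the interquartile range of all 12648 genes tested. At 22 h the medians are 0.26 for core α, 0.69 for core constitutive β, -0.36 for immunoproteasome β, 0.48 for 19S ATPases, 0.56 for 19S non-ATPases and 0.09 for activators.

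Among the constitutive β subunits, the 3 that carry the proteolytic sites of the standard proteasome are encoded by Psmb5, Psmb6 and Psmb7. Psmb6, the caspase-like subunit (ENSMUSG00000018286), was with Psmd8 the earliest member to rise. It had 316, 322 and 284 CPM in BafA1 libraries, against 192, 181 and 160.3 CPM in DMSO libraries at 7 h. At 14 h its level was 482, 410.0 and 349 CPM in BafA1 libraries, against 251, 202 and 188 CPM in DMSO libraries. At 22 h Psmb6 had 498, 519 and 488 CPM in BafA1 libraries, against 177, 150.3 and 154 CPM in DMSO libraries. From 7 h on, every BafA1 library was above every DMSO library of its time, and at 1 h the groups overlapped, with 243, 202 and 213 CPM in BafA1 libraries, against 203, 200.3 and 197 CPM in DMSO libraries. The log2 change was 0.79 ± 0.13 at 7 h, 0.95 ± 0.13 at 14 h and 1.64 ± 0.13 at 22 h, with edgeR adjusted p of 0.000258, 4.70e-06 and 5.17e-10.

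Psmb5 (ENSMUSG00000022193) encodes the chymotrypsin-like subunit, the main target of proteasome inhibitor drugs. It was not called at 7 h, with 153, 151 and 178 CPM in BafA1 libraries, against 184, 191 and 162 CPM in DMSO libraries. At 14 h it had 221, 226 and 221 CPM in BafA1 libraries, against 169, 139.9 and 171 CPM in DMSO libraries. At 22 h the level was 288, 311 and 338 CPM in BafA1 libraries, against 160.3, 130.5 and 127 CPM in DMSO libraries. The groups overlapped at 7 h and were apart at both later times. The log2 change was 0.47 ± 0.13 at 14 h and 1.16 ± 0.13 at 22 h (edgeR adjusted p = 0.00862 and 1.37e-07). The 14 h call was lost without DMSO replicate 2 of 14 h (edgeR adjusted p = 0.0632). Exons of Psmb5 overlap those of Mir686 on the same strand.

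Psmb7, the trypsin-like subunit, had 61.8, 53.7 and 80.3 CPM in BafA1 libraries, against 43.2, 38.9 and 38.6 CPM in DMSO libraries at 22 h, and 38.4 to 59.7 CPM with BafA1 and 38.0 to 53.5 CPM with DMSO at the earlier times. The 22 h groups did not overlap, and the log2 change was 0.69 ± 0.18 (edgeR adjusted p = 0.00271). The 14 h groups were also apart, at 55.1 to 59.1 CPM with BafA1 and 40.8 to 48.4 CPM with DMSO, but Psmb7 was not called then. Exons of Psmb7 overlap those of Nek6 on the opposite strand. Psmb4, a β subunit with no proteolytic site, had 235, 213 and 265 CPM in BafA1 libraries, against 158, 128 and 155 CPM in DMSO libraries at 22 h, and 131 to 213 CPM with BafA1 and 142 to 189 CPM with DMSO earlier. Its 22 h groups were apart, with a log2 change of 0.69 ± 0.13 (edgeR adjusted p = 0.000133). At 14 h the groups of Psmb4 were also apart, at 192 to 213 CPM with BafA1 and 142 to 189 CPM with DMSO, but not called. Psmb3, also without a proteolytic site, rose by 0.74 ± 0.16. Over all genes tested, 17.9% were higher at 22 h and 12.1% at 14 h. In total 5 of 7 constitutive β genes rose at 22 h and 2 of 7 at 14 h, with median log2 changes of 0.69 and 0.34. The remaining 2, both non-catalytic, were Psmb2 at 0.45 ± 0.20 and Psmb1 at -0.05 ± 0.15, neither of them called (edgeR adjusted p = 0.0719 and 0.83).

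**Figure D3:**
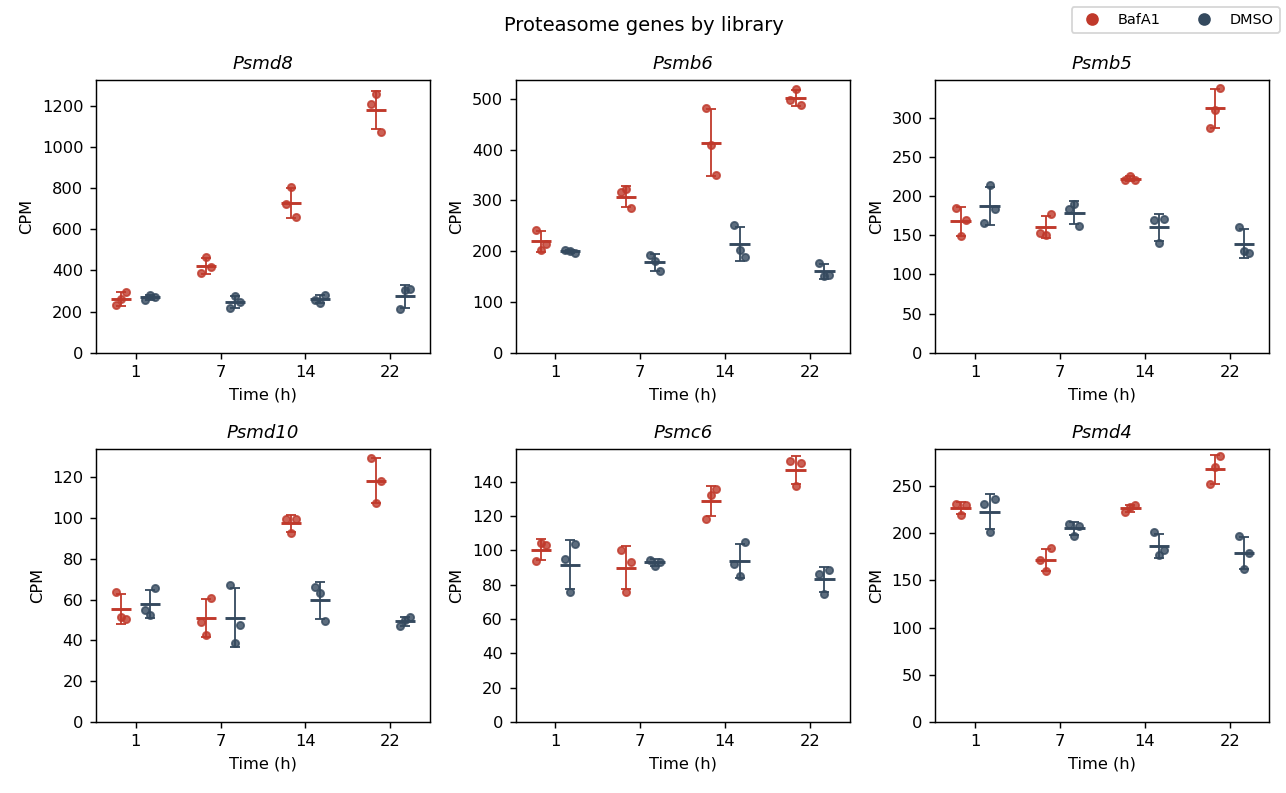
CPM per library (points) of Psmd8, Psmb6, Psmb5, Psmd10, Psmc6 and Psmd4 at 1, 7, 14 and 22 h, BafA1 in red on the left and DMSO in blue on the right of each time, with the mean (bar) and SD (whiskers, n = 3). In all 6 panels the 3 BafA1 libraries lie above the 3 DMSO libraries at 14 and 22 h, and in the Psmd8 and Psmb6 panels they also do at 7 h. These genes were named for small p-values of the treatment by time F test in the same data. The share of all genes separated in this way was not counted.

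The promoters of the 4 members with the largest rises at 22 h are shown beside their values, as the 250 bases before the start site taken from RefSeq (build GRCm38.p6). RefSeq windows were found for 35 of 41 members. Capitals mark a match to TGACNNNGC, the core of the antioxidant response element that Nfe2l1 and Nfe2l2 bind with small Maf proteins, on either strand. Each sequence is written 5′ to 3′ on the gene's own strand and ends 1 base before the start site.
Psmd8, chr7:29180674-29180923, minus strand, no match: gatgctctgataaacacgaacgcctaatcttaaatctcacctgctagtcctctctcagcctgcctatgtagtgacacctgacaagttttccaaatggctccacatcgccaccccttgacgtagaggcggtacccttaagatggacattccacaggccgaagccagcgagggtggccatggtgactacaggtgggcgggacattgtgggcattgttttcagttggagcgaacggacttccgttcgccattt
Psmb6, chr11:70525107-70525356, plus strand, match starting 9 bases before the start site: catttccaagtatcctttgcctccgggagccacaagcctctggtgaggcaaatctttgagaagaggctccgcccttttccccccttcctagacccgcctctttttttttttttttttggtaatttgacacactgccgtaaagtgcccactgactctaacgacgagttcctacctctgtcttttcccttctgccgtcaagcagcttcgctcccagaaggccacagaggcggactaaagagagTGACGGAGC
Psmd10, chrX:140956712-140956961, minus strand, no match: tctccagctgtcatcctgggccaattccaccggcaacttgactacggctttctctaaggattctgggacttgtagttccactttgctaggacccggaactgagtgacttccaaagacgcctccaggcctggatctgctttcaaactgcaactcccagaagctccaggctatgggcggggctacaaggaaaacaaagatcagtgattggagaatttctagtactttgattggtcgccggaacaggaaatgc
Psmb5, chr14:54617996-54618245, minus strand, match starting 47 bases before the start site: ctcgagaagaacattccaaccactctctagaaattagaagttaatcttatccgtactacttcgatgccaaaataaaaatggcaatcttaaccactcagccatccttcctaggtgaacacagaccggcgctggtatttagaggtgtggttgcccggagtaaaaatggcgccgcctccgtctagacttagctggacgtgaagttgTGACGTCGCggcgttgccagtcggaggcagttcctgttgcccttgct

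Counted over windows of 300 bases that also hold the first 50 transcribed bases, the motif was in 6 of 35 members (17.1%), namely Psmb5, Psmb6, Psmc6, Psmd9, Psmd12 and Psme4, and in 14% of 27025 genes with a window. It was in 3 of 19 members with a window that rose at 22 h and in 3 of 16 others. Psmd8, Psmd10 and Psmd13, which rose at 22 h, held no match to these letters in the window. The CCAAT box was in 13 of 35 members (37.1%) and in 41.1% of all genes. CACGTG was in 4 of 35 (11.4%) and in 8.09% of all genes, and TGATGNAA in 1 of 35 (2.86%) and in 4.51%. All motifs were chosen after the values were seen, both strands were searched, and a match is a description of the letters only.

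The α subunits had the smallest median change among the constitutive core and 19S genes. At 22 h, 3 of 7 rose (Psma2, Psma4 and Psma5), and at 14 h none of the 7 was called, with median log2 changes of 0.26 and -0.03. The shares of all genes higher were 17.9% at 22 h and 12.1% at 14 h. Psma2 had 224, 211 and 259 CPM in BafA1 libraries, against 164, 159.7 and 150.3 CPM in DMSO libraries at 22 h, and 169 to 220.2 CPM with BafA1 and 153 to 199 CPM with DMSO at the earlier times. Its 22 h groups did not overlap, and the log2 change was 0.55 ± 0.12 (edgeR adjusted p = 0.000997). Psma4 had 141, 141 and 149.6 CPM in BafA1 libraries, against 113, 115 and 91.7 CPM in DMSO libraries at 22 h, and 102 to 148 CPM with BafA1 and 108 to 139.8 CPM with DMSO earlier. Its change of 0.43 ± 0.14 (edgeR adjusted p = 0.0135) was no longer called without DMSO replicate 3 of 22 h, its lowest library, where the adjusted p was 0.0584. Psma5 had 98.3, 106 and 123 CPM in BafA1 libraries, against 90.9, 82.6 and 65.6 CPM in DMSO libraries at 22 h, and 59.2 to 115 CPM with BafA1 and 75.0 to 98.1 CPM with DMSO earlier.

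The Psma5 groups were apart at 22 h by a narrow gap. Its log2 change was 0.45 ± 0.16 (edgeR adjusted p = 0.0296), and the call was lost without BafA1 replicate 3, DMSO replicate 2 or DMSO replicate 3 of 22 h (edgeR adjusted p = 0.129, 0.052 and 0.116). It was also lost in a fit of the 6 libraries of 22 h alone (edgeR adjusted p = 0.0526). The other 4 α genes, Psma1, Psma3, Psma6 and Psma7, had log2 changes of 0.03 to 0.26 at 22 h and were not called. Psma4 and Psma5 exons overlap those of AY074887 and 1700010K24Rik on the opposite strand.

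None of the 3 immunoproteasome genes rose at any time, and at 22 h 17.9% of all genes were higher. So small a count cannot be set apart from that share. Psmb9 (ENSMUSG00000096727), which takes the place of the Psmb6 product, was the only member called lower. At 22 h Psmb9 had 15.7, 11.4 and 11.3 CPM in BafA1 libraries, against 24.1, 30.4 and 34.1 CPM in DMSO libraries. At 14 h it had 12.9, 26.6 and 13.4 CPM in BafA1 libraries, against 24.3, 21.5 and 17.5 CPM in DMSO libraries. The ranges at 7 h were 7.23 to 24.8 CPM with BafA1 and 9.22 to 30.2 CPM with DMSO. At 1 h they were 21.2 to 32.8 CPM with BafA1 and 15.8 to 42.1 CPM with DMSO. The lowest DMSO library of 7 h was thus below every BafA1 library of 22 h. The groups were apart at 22 h and overlapped at the earlier times. The log2 change at 22 h was -1.19 ± 0.42 (edgeR adjusted p = 0.0257), a fold change of 0.437. The call was lost without BafA1 replicate 2 or 3, or DMSO replicate 2 or 3, of 22 h (edgeR adjusted p = 0.0738, 0.0799, 0.0526 and 0.0983), with log2 changes of -1.38 to -1.01 over the 6 libraries left out in turn. Exons of Psmb9 overlap those of Tap1 on the opposite strand, and whether counting used strand is not given in the sources used here, so reads of the pair may not be fully separated.

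Psmb8, the partner of Psmb5, had 74.4, 75.7 and 80.3 CPM in BafA1 libraries, against 92.3, 118 and 82.9 CPM in DMSO libraries at 22 h, and 68.1 to 129.6 CPM with BafA1 and 68.5 to 117 CPM with DMSO earlier. All 3 BafA1 libraries were just below all 3 DMSO libraries at 22 h, but the change of -0.34 ± 0.23 was not called (edgeR adjusted p = 0.248). Psmb8 exons also overlap those of another gene, Gm20496, on the opposite strand. Psmb10, the partner of Psmb7, had 46.2, 54.9 and 35.4 CPM in BafA1 libraries, against 66.9, 74.8 and 35.04 CPM in DMSO libraries at 22 h, and 48.5 to 70.4 CPM with BafA1 and 47.0 to 79.9 CPM with DMSO earlier. Its 22 h groups overlapped, since DMSO replicate 3 was the lowest of the 6 libraries. The log2 change of Psmb10 was -0.36 ± 0.23 and was not called (edgeR adjusted p = 0.21). Without that library it was -0.59 (edgeR adjusted p = 0.0311), a fit that keeps BafA1 replicate 3, the lowest library of its own group. With all libraries thinned to the smallest total it was -0.69 (edgeR adjusted p = 0.0192). With the replicate number as a block it was -0.35 and not called (blocked edgeR adjusted p = 0.0692).

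**Figure D4:**
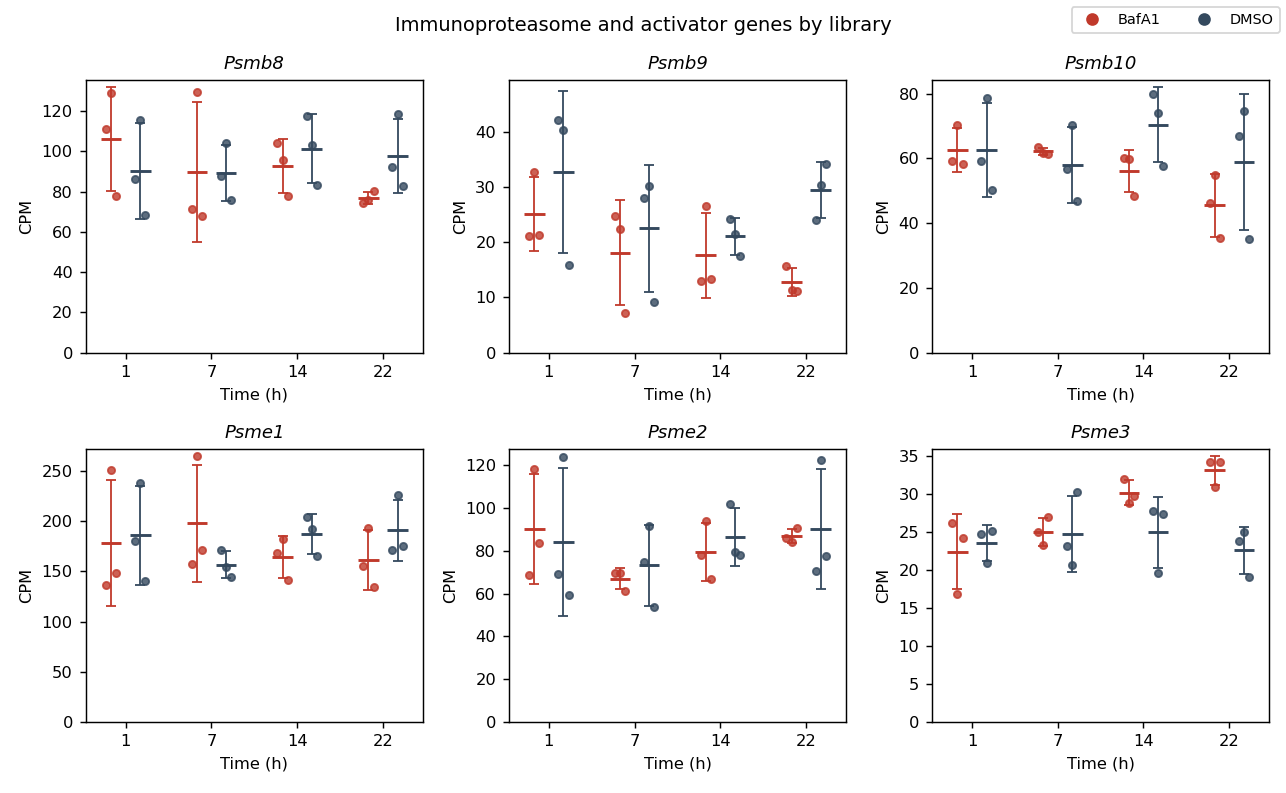
CPM per library (points) of the immunoproteasome genes Psmb8, Psmb9 and Psmb10 and the activator genes Psme1, Psme2 and Psme3 at 1, 7, 14 and 22 h, BafA1 in red on the left and DMSO in blue on the right of each time, with the mean (bar) and SD (whiskers, n = 3). At 22 h the BafA1 libraries lie below the DMSO libraries for Psmb8 and Psmb9 and above them for Psme3, and they overlap for Psmb10, Psme1 and Psme2.

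Ratios within each library set each immunoproteasome gene against its constitutive partner. They compare tag counts between groups and are not a ratio of molecules, and no test was run on them. The ratio of Psmb9 to Psmb6 at 22 h was 0.0314, 0.0219 and 0.0231 in BafA1 libraries, against 0.136, 0.202 and 0.222 in DMSO libraries. The ratio of Psmb8 to Psmb5 was 0.258, 0.244 and 0.237 with BafA1, against 0.576, 0.907 and 0.654 with DMSO. Neither ratio overlapped between the groups at 22 h. In both pairs the mean of the constitutive gene was higher and that of the immunoproteasome gene lower in BafA1 libraries. The ratio of Psmb10 to Psmb7 was 0.747, 1.02 and 0.441 with BafA1, against 1.55, 1.92 and 0.908 with DMSO. The group ranges of Psmb10 over Psmb7 overlapped, but within each replicate number it was lower with BafA1, at 0.482, 0.533 and 0.486 of the DMSO value. The other ratios were also lower in all 3 pairs at 22 h. Psmb8 over Psmb5 was, however, higher with BafA1 in all 3 pairs at 1 h, when no gene was called. Its 1 h means were 0.642 with BafA1 and 0.478 with DMSO, and the group ranges overlapped. Agreement across 3 pairs thus also arose, in the opposite direction, where no gene was called. At 14 h the means were 0.0433 ± 0.0195 with BafA1 and 0.0988 ± 0.00718 with DMSO for Psmb9 over Psmb6 (SD, n = 3 each). For Psmb10 over Psmb7 they were 0.989 ± 0.112 with BafA1 and 1.59 ± 0.348 with DMSO. The 14 h groups of each ratio were apart. For Psmb8 over Psmb5 the means were 0.416 ± 0.0589 with BafA1 and 0.639 ± 0.132 with DMSO. The DMSO mean of this ratio was 0.478 at 1 h and 0.712 at 22 h, and that of Psmb9 over Psmb6 was 0.163 and 0.187.

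**Figure D5:**
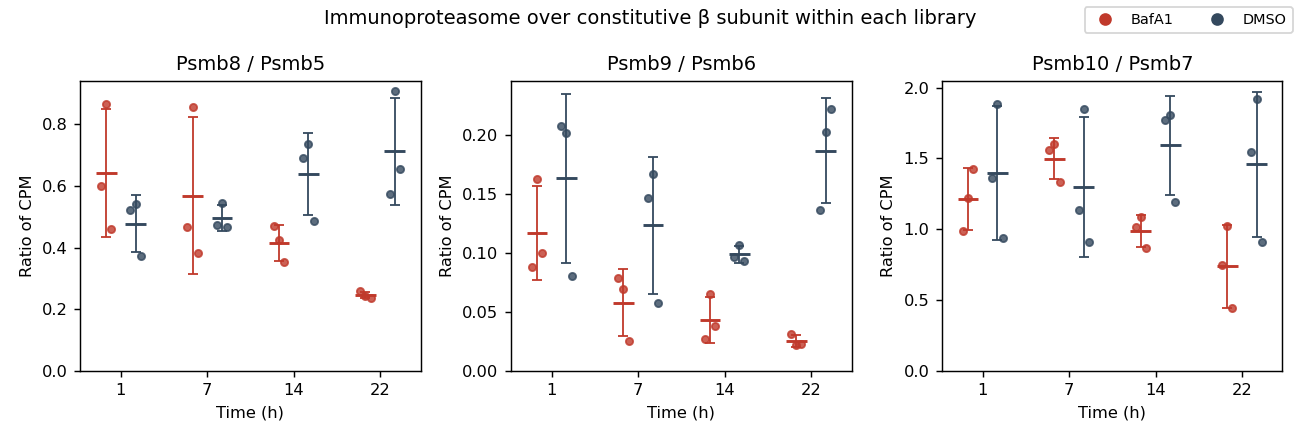
Ratio of CPM within each library (points) of each immunoproteasome gene to its constitutive partner at 1, 7, 14 and 22 h, BafA1 in red on the left and DMSO in blue on the right of each time, with the mean (bar) and SD (whiskers, n = 3). At 22 h the BafA1 means are 0.247 for Psmb8 over Psmb5 and 0.0255 for Psmb9 over Psmb6, against DMSO means of 0.712 and 0.187, with no overlap, while the group ranges of Psmb10 over Psmb7 overlap although each BafA1 library lies below the DMSO library of the same replicate number.

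For the immunoproteasome genes the promoter window of Psmb8 is shown because it held a match to TTCNNNGAA, the gamma-activated site of interferon-responsive genes, marked in capitals and starting 97 bases before the start site.
Psmb8, chr17:34197945-34198194, plus strand: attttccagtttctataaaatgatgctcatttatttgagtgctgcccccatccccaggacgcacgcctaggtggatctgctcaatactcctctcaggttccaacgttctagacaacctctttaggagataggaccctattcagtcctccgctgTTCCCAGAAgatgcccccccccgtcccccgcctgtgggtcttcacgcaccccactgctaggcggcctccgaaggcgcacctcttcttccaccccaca
The motif was in 2 of 35 members (5.71%), Psmb8 and Psmd2, and in 9.55% of all genes with a window. A core of the interferon-stimulated response element (GAAA, any 2 bases, GAAA) was in 4 of 35 members (11.4%), Psmb3, Psmd4, Psmd9 and Psme1, and in 3.99% of all genes. Of the 4, 2 were among the 19 that rose at 22 h.

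The activators open the core gate from the end that the 19S particle leaves free. Psme3, the nuclear activator, was the only one of the 4 called, and only at 22 h, when 17.9% of all genes were higher. It had 34.1, 30.9 and 34.2 CPM in BafA1 libraries, against 23.8, 24.9 and 19.1 CPM in DMSO libraries at 22 h, and 16.8 to 31.9 CPM with BafA1 and 19.6 to 30.3 CPM with DMSO earlier. The groups were already apart at 14 h, at 28.8 to 31.9 CPM with BafA1 and 19.6 to 27.8 CPM with DMSO. The 22 h groups did not overlap either, and the log2 change there was 0.56 ± 0.20 (edgeR adjusted p = 0.0252). The call was lost without BafA1 replicate 1, BafA1 replicate 3 or DMSO replicate 3 of 22 h (edgeR adjusted p = 0.0643, 0.061 and 0.09), with no filter on low counts (0.0754) and in a fit of the 6 libraries of 22 h alone (0.0542).

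Psme1 and Psme2 encode the interferon-inducible activator that works with the immunoproteasome. Psme1 had 156, 194 and 134 CPM in BafA1 libraries, against 171, 226 and 176 CPM in DMSO libraries at 22 h, and 136 to 265 CPM with BafA1 and 140.1 to 238 CPM with DMSO earlier. Psme1 exons overlap those of Emc9 by 14 bases on the opposite strand. Psme2 had 86.1, 84.3 and 90.5 CPM in BafA1 libraries, against 70.6, 122 and 77.6 CPM in DMSO libraries at 22 h, and 61.4 to 118 CPM with BafA1 and 53.6 to 124 CPM with DMSO earlier. Both overlapped between the groups, and their log2 changes of -0.24 ± 0.22 and -0.03 ± 0.24 were not called (edgeR adjusted p = 0.404 and 0.939). The value of Psme2 is uncertain because its near-identical copy Psme2b may share its reads. Its estimated counts were not whole numbers in any library. The same was true of Psma3, Psma4, Psmb3, Psmb5, Psmc1, Psmd1, Psmd2 and Psme1, and reads shared with other genes were not examined for these. Psme4, which activates the core in the nucleus, had 65.4, 57.3 and 63.6 CPM in BafA1 libraries, against 63.7, 52.2 and 44.8 CPM in DMSO libraries at 22 h, and 45.0 to 67.7 CPM with BafA1 and 39.8 to 61.6 CPM with DMSO earlier. It too overlapped, with a change of 0.21 ± 0.17 that was not called (edgeR adjusted p = 0.335). At 14 h the groups of Psme4 were apart, at 58.5 to 66.5 CPM with BafA1 and 39.8 to 53.1 CPM with DMSO, but not called.

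Whether the BafA1 effect itself changed over time was tested across all 4 times with an F test of treatment by time. It was called for 11 of 41 members (26.8%), against 21.2% of all genes tested. By role these were 5 of 7 constitutive β genes (Psmb2, Psmb3, Psmb4, Psmb5 and Psmb6), 4 of 14 non-ATPase genes (Psmd4, Psmd8, Psmd10 and Psmd13), Psmc6 and Psma2. The smallest edgeR adjusted p were 1.35e-07 for Psmd8, 1.28e-05 for Psmb5 and 1.50e-05 for Psmb6. With the replicate block the count was 18 of 41, against 32.8% of all genes. Psmb2 was called here although no single time was, with log2 changes of -0.54 ± 0.21 at 1 h (unadjusted p = 0.0147, edgeR adjusted p = 1) and 0.45 ± 0.20 at 22 h. It had 16.4, 28.8 and 22.8 CPM in BafA1 libraries, against 28.8, 36.3 and 32.2 CPM in DMSO libraries at 1 h, and these overlapped at a single pair of values.

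Between neighbouring times, the effect differed for 0 members from 7 h to 14 h and for 1 member from 14 h to 22 h. The background was 0.735% of all genes with a higher and 1.53% with a lower effect for the earlier step, and 0.419% and 1.57% for the later one. At an unadjusted p under 0.05 there were 9 members for the earlier step and 10 for the later one, against 15.2% and 14.1% of all genes. The 1 called member was Psmb6, whose log2 change was larger at 22 h than at 14 h by 0.69 ± 0.18 (edgeR adjusted p = 0.0498). In 12 fits that left out 1 library each, the count was 0 without BafA1 replicate 2 or 3 or DMSO replicate 1 of 14 h, and without any BafA1 replicate or DMSO replicate 2 or 3 of 22 h. It was 3 without DMSO replicate 1 of 22 h. With the replicate block, 4 members were called for each step, Psmb5, Psmd4, Psmd8 and Psmd10 for the earlier and Psma2, Psmb5, Psmb6 and Psmd8 for the later, against 7.04% and 6.24% of all genes in either direction. DESeq2 called 3 for each step, against 3.44% and 3.38% of all genes. In vehicle alone, DMSO at 22 h against DMSO at 1 h, 0 members were called by edgeR or by DESeq2. Of all genes, edgeR called 0.372% higher and 0.0316% lower, and DESeq2 0.664% and 0.111%. At an unadjusted edgeR p under 0.05 there were 3 members, against 8.15% of all genes. The members' median log2 change was -0.14, against 0.00 for all genes. For the 7 constitutive β genes it was -0.27, with 0 positive and 2 at an unadjusted edgeR p under 0.05. Mean Psmb5 was 188 CPM at 1 h and 139 CPM at 22 h in DMSO, and mean Psmb6 was 200 and 160 CPM. The 22 h changes of these genes are set against the lower DMSO level.

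Summed over all 41 members, the level was 7758 ± 143 CPM with BafA1 and 5070 ± 181 CPM with DMSO at 22 h, and 6622 ± 155 CPM with BafA1 and 5412 ± 251 CPM with DMSO at 14 h (SD, n = 3 each). Psmd8 alone had means of 1181 ± 94.2 CPM with BafA1 and 275 ± 55.9 CPM with DMSO at 22 h. Without it the sums at 22 h were 6577 ± 185 CPM with BafA1 and 4795 ± 160 CPM with DMSO, and the groups still did not overlap. The 19S genes without Psmd8 summed to 2932 ± 72.7 CPM with BafA1 and 2025 ± 5.38 CPM with DMSO. The immunoproteasome genes summed to 135 ± 7.56 CPM with BafA1 and 186 ± 35.8 CPM with DMSO, and the activators to 343 ± 22.0 CPM with BafA1 and 358 ± 59.5 CPM with DMSO.

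Genes that work with the proteasome were read from lists chosen for their roles. Over all genes tested, 17.9% were higher at 22 h and 12.1% at 14 h. Of 6 genes for proteins bound to the 19S particle, 5 rose at 22 h and 3 at 14 h. Among them were Txnl1, a redox protein of the particle (0.89 ± 0.15 at 22 h), the deubiquitinases Uchl5 (0.74 ± 0.27) and Usp14 (0.45 ± 0.12), and the ubiquitin ligase Ube3c (0.61 ± 0.23). Of 8 assembly factors and inhibitors tested, 1 rose at 22 h and 1 at 14 h. Psmg3, an assembly chaperone, rose at 22 h (0.99 ± 0.23) and Ecpas, a scaffold bound to the proteasome, at 14 h (0.57 ± 0.18), and Pomp, the maturation factor of the core, was at 0.06 ± 0.17 at 22 h, not called (edgeR adjusted p = 0.821).

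Nfe2l1, the genes that process its product and the related partners formed a list of 13, of which 3 rose at 7 h, 8 at 14 h and 10 at 22 h. Of all genes tested, 4.57% were higher at 7 h, 12.1% at 14 h and 17.9% at 22 h. The median log2 change of the list at 22 h was 0.76, against -0.06 for all genes tested. Nfe2l1 itself had log2 changes of 0.92 ± 0.22 at 14 h and 0.98 ± 0.22 at 22 h (edgeR adjusted p = 0.00248 and 0.000745). The small Maf genes Mafk, Maff and Mafg, whose products pair with it on DNA, rose by 1.80 ± 0.38, 1.72 ± 0.36 and 1.08 ± 0.16 at 22 h. Ddi2, the protease that cuts the Nfe2l1 product, was at -0.27 ± 0.21 and not called (edgeR adjusted p = 0.313).

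Genes that supply ubiquitin did not move alike. Ubb, a polyubiquitin gene, rose by 1.12 ± 0.13 at 22 h, whereas Rps27a, which encodes ubiquitin fused to a ribosomal protein, was at -0.0015 ± 0.14 and was not called (edgeR adjusted p = 0.995). Ubiquitin genes share near-identical coding sequence, so these counts are uncertain where reads reach it. The main activating enzyme gene Uba1 fell (-0.34 ± 0.13) and the alternative one, Uba6, rose (0.50 ± 0.15). Of 9 genes for shuttle and zinc-finger adaptor proteins that bring substrates to the proteasome, 6 rose at 22 h, against 17.9% of all genes. Among the 6 were Zfand2a at 1.89 ± 0.25, Zfand5 at 1.13 ± 0.12, Rad23b at 0.86 ± 0.15 and Ubqln4 at 0.69 ± 0.22.

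In a list of 12 genes of interferon signalling and peptide loading, which work with the immunoproteasome, 6 fell and 1 rose at 22 h, 2 fell and 1 rose at 14 h, and 1 fell and 0 rose at 7 h. Of all genes tested, 22% were lower and 17.9% higher at 22 h, and 12.1% each way at 14 h. At 7 h the shares were 2.57% lower and 4.57% higher. The median log2 change of the list at 22 h was -0.84, against -0.06 for all genes tested. Among those that fell were Irf9 (-1.20 ± 0.27), Irf2 (-1.16 ± 0.19) and Stat2 (-1.03 ± 0.31), transcription factors of interferon responses. Tap1, which carries peptides into the endoplasmic reticulum and lies next to Psmb9, was at -0.68 ± 0.23 (edgeR adjusted p = 0.0182). Erap1, a peptide-trimming enzyme, was the 1 that rose (0.64 ± 0.23).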

How the data were processed

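RNA was extracted from 24 cultures, and 3′ tag libraries with molecular identifiers were sequenced single-end to 75 bp (per the labels' protocols). The authors deposited estimated counts per gene together with log2 CPM. Salmon and GRCm39 are named in the submitters' processing notes, with no versions given. Of the deposited positive counts, 37.1% were not whole numbers, and all were rounded for the tests. The deposited log2 CPM differed by at most 0.00121 from values recomputed from the counts with TMM factors, and only the counts were tested. CPM here are counts over the library total times its TMM factor (0.895 to 1.15). RNA integrity numbers were 9.6 to 10 in the 23 libraries that have one.

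Genes were filtered with edgeR's filterByExpr over the 8 groups, which left 12648 of 56980 genes and removed 0.699% of counts. Tests used edgeR 4.0.16 (glmQLFit and glmQLFTest, R 4.3.3) on 8 groups at once, and the SE is the absolute log2 change over the square root of F. Alternatives were DESeq2 1.42.0, limma-voom (limma 3.58.1), other scaling, other filters, thinned counts, 6-library fits, leaving out each library, and the replicate block. The scripts were tested on simulated data.

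Same-numbered BafA1 and DMSO samples of the same time deviated together: over 12 pairs the correlation of deviations from group means was 0.143 to 0.339, and each BafA1 sample correlated best with the DMSO sample of its own number. No replicate pair was a duplicate, since chi-square per degree of freedom was 3.87 to 10.6. The members and lists were chosen with earlier results of these data known. Named with library values were the 3 members of each role with the smallest F-test p, all immunoproteasome and activator genes, and Psmb5, Psmb6 and Psmb7. The share of all genes tested whose groups did not overlap was not counted, so a lack of overlap describes the named genes only. Related lists name up to 4 called genes with the largest change (some genes of these lists are not reported here), and Pomp, Ddi2, Rps27a, Tap1 and Erap1, and the library values of Psmb2, were chosen after their values were seen. Promoters come from RefSeq on GRCm38.p6, not the build of the counts, so no other coordinates are given.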

Additional observations from a re-analysis of the deposited data

Results flagged for a closer look

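The BafA1 effect differed between the 4 times, by the treatment-by-time F test of edgeR, for 11 of 41 members (26.8%), against 21.2% of all genes tested. The adjusted p was 1.35e-07 for Psmd8, 1.28e-05 for Psmb5, 1.50e-05 for Psmb6, 0.000568 for Psmd10, 0.00144 for Psmd4 and 0.00608 for Psmc6. It was 0.00757 for Psmd13, 0.00764 for Psmb4, 0.0234 for Psmb3, 0.0292 for Psmb2 and 0.0439 for Psma2. Among these, Psmd8 and Psmb6 were already higher at 7 h and Psmb5, Psmc6 and Psmd10 at 14 h, and Psmd4, Psmd13, Psmb4, Psmb3 and Psma2 were called at 22 h only. The effect on Psmb6 also differed between 14 h and 22 h (edgeR adjusted p = 0.0498).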

How the results depend on the processing

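The counts of members that rose stayed within 1.5 times of those reported under every alternative run, at 7, 14 and 22 h. With 1 library left out in turn, 2 members rose at 7 h in every case, 6 to 8 at 14 h and 18 to 21 at 22 h, 0 to 1 fell at 22 h and 0 to 1 at 7 h (1 without BafA1 replicate 1 of 7 h), and the F test called 8 to 13. The effect differed for 0 to 1 members between 7 and 14 h (1 without BafA1 replicate 3 of 14 h) and for 0 to 3 between 14 and 22 h. Members lower at 7 h numbered 1, against 0 reported, with DESeq2, with the replicate block and with a stricter filter (mean CPM of at least 10), and members lower at 22 h numbered 2 with thinned libraries. Between 14 and 22 h, against 1 reported, the count was 3 with DESeq2, 4 with the replicate block, 2 with the stricter filter, and 0 with RLE size factors, thinned libraries, limma-voom or no filter. Between 7 and 14 h, against 0 reported, it was 3 with DESeq2, 1 with no filter and 4 with the replicate block. The F test called 18 with the block, against 32.8% of all genes. Beyond the changes given in the report, the block changed calls of the F test only, adding Psma5, Psmb7, Psmc2, Psmd1, Psmd2, Psmd7 and Psmd11. The cause of these differences was not tested. Psme2 at 22 h changed sign, with 0.043 under limma-voom, 0.11 with no filter, 0.0083 with the block, and -0.14 to 0.23 with 1 library left out in turn. Raising the rule's threshold to a mean of 5 CPM kept 41 members. Psmb9, with 18.0 to 104 counts per library, and Psme3, with at most 133, are among the members with the lowest counts, where depth limits precision most.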
